A study of Mus musculus with 36 samples.

Results

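MicroRNAs of the mouse left ventricle were compared between myocardial infarction (MI) and sham operation 1 week after surgery, in 3 small RNA libraries per group. The animals were C57BL/6 mice, males operated at 8 weeks of age per the study's methods, with MI made by ligation of a coronary artery (the proximal LAD) and no occlusion in sham mice. The labels name no transgene or drug for either group. The RNA of each library came from pooled left ventricle, which of its regions (infarct, border or remote) is not stated, and neither is the number of animals per library, so the p-values below describe the spread among these libraries alone, which may be technical. The study also sequenced 1 day and 8 weeks, 36 libraries in all with mRNA, and these are used only where the 1-week difference is set against theirs. A microRNA was taken where it had at least 10 RPM (microRNA reads scaled to a common library size by the authors) in 3 of the 6 libraries, which 339 of the 624 listed microRNAs did. Of these, 239 passed in all 6 libraries, 77 were under 10 RPM in all 3 sham libraries and 4 in all 3 MI libraries, so a share of the members entered through the group in which they were high. The closest to the limit were miR-7a-5p inside it (10.02 RPM in the library that decided it) and miR-497a-3p outside it (9.96 RPM), and the other 285 microRNAs were not tested here. Identical counts in every library were listed for 9 sets of members, 19 names such as miR-486a-5p and miR-486b-5p, so 329 members were distinct measurements.

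A microRNA is a short RNA cut from a hairpin precursor, whose 5' and 3' arms (5p and 3p) can both become mature strands. Loaded into an Argonaute protein, it represses mRNAs that pair with its seed, bases 2 to 8 from its 5' end, and microRNAs with the same seed form a family with overlapping targets. In the heart, miR-1, miR-133, miR-208 and miR-499 are made by muscle cells, miR-142 and miR-223 by blood-derived leukocytes, and miR-21, miR-199 and miR-214 are known from fibroblasts and scars.

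The mature sequences of the microRNAs on which the results turn are given 5' to 3', with the seed in capitals, as listed by RefSeq for GRCm38.p6 (the same assembly as mm10), which held 287 of the 339 names. The first set is of microRNAs that were higher with MI. Both arms of miR-21a lie on the minus strand of chromosome 11 (86584120 to 86584141 for 5p), miR-199a-5p and miR-214-3p on the plus strand of chromosome 1 (162217844 to 162217866 and 162223438 to 162223459), and miR-381-3p, miR-410-3p and miR-541-5p on the plus strand of chromosome 12, in the imprinted Dlk1-Dio3 region.
miR-21a-5p: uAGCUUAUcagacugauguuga
miR-21a-3p: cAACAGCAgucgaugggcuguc
miR-199a-5p: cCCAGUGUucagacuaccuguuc
miR-214-3p: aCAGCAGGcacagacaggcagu
miR-381-3p: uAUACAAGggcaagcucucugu
miR-410-3p: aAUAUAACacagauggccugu
miR-541-5p: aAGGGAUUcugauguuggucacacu
miR-34b-3p: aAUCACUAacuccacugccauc
miR-34c-3p: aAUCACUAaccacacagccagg

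The second set is of microRNAs that were lower with MI in the main test, shown because some of them have a seed in common. Of these, miR-208b-3p was lower by a smaller amount, and not under every scaling of the libraries. miR-208a-3p and miR-208b-3p have the same seed, and the miR-30 strands shown have one seed in common. The strands of miR-208a and miR-208b lie on chromosome 14 (minus strand, 54949072 to 54949093 and 54975710 to 54975731), in introns of the myosin genes Myh6 and Myh7, and miR-499-5p lies in Myh7b on chromosome 2 (plus strand, 155622893 to 155622913).
miR-208a-3p: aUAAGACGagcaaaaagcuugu
miR-208b-3p: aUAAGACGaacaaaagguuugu
miR-499-5p: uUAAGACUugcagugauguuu
miR-30a-5p: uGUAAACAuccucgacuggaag
miR-30c-5p: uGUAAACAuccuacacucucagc
miR-30e-5p: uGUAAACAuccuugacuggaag

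The third set is of let-7 and miR-29 strands, which have one seed per family and whose members changed by different amounts.
let-7f-5p: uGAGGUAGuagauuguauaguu
let-7g-5p: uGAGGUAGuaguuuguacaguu
let-7e-5p: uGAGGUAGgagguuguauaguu
let-7i-5p: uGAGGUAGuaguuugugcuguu
miR-29a-3p: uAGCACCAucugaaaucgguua
miR-29b-3p: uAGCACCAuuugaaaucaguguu
miR-29c-3p: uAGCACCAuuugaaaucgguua

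One week after MI the microRNA pool of the ventricle held less of its muscle microRNAs and more of those of scar, of most of those known from leukocytes and of those from the Dlk1-Dio3 region. Of the 339 microRNAs, 163 (48.1%) were higher with MI and 141 (41.6%) lower at an adjusted p below 0.05, and 35 were not called (edgeR quasi-likelihood test on the deposited counts, trimmed-mean TMM factors, Benjamini-Hochberg adjustment over all 339). The called share was therefore 89.7%, and MI and sham libraries did not overlap for 311 (91.7%), of which 49.0% of all members had MI higher and 42.8% MI lower, so a call or a gap between groups says little by itself and sizes are given throughout. The change was over 2-fold for 112 of the higher and 85 of the lower microRNAs and over 8-fold for 30 and 19. The coefficient of variation beyond counting, estimated by edgeR, was 13.8%. Levels below are read counts scaled by library size and TMM factor (normalised CPM), which are not plain shares of the reads, and differences are log2 of MI over sham with an approximate standard error (s.e.).

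The balance of higher and lower depended on the scaling. The MI libraries held 28647053 to 31798587 microRNA reads and the sham libraries 35125471 to 36362789. The 10 most abundant microRNAs took 58.2 to 60.2% of them with MI and 71.4 to 71.7% with sham, and TMM factors were 1.45 to 1.54 against 0.653 to 0.688. With library totals alone each log2 difference was larger by about 1.17, and 298 (87.9%) were called, 241 (71.1%) higher and 57 (16.8%) lower, so 80.9% of the called microRNAs were higher in place of 53.6%. The medians over all members were 0.18 with TMM and 1.34 with totals. Of the 141 lower by TMM, 57 were lower by totals as well, 40 were not called and 44 were called higher. The same call was made under TMM, median-ratio, upper-quartile and totals scaling for 146 higher (43.1%) and 57 lower (16.8%) microRNAs, and a call below is one of these unless another scaling is named beside it.

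**Figure D1:**
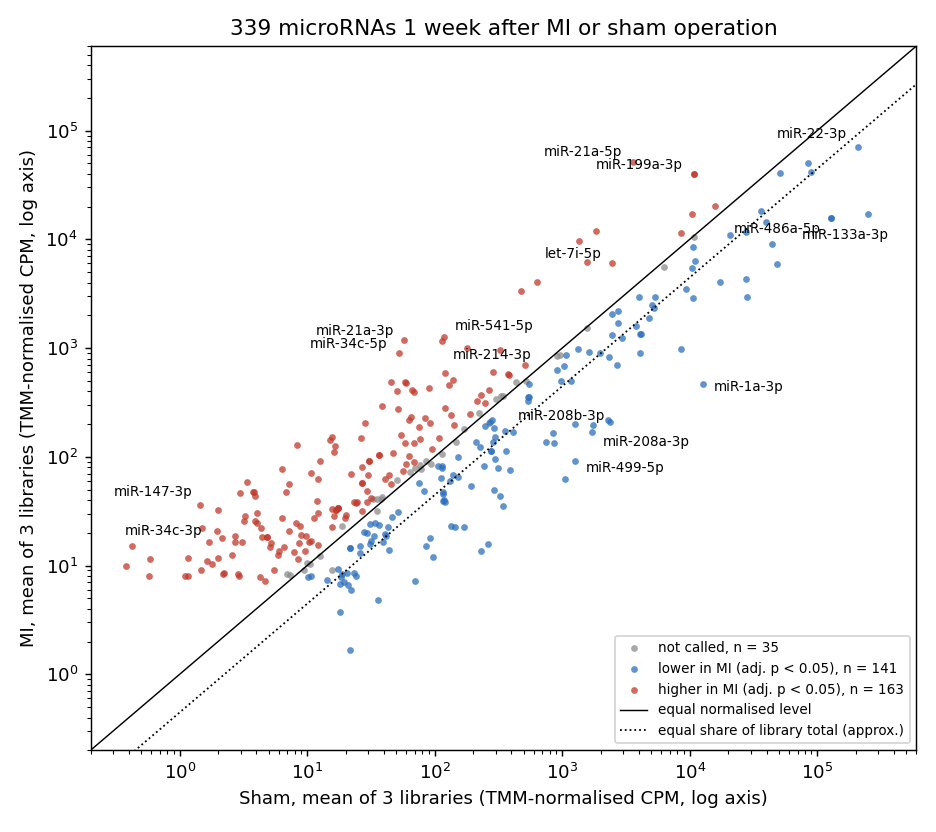
Mean level of each of the 339 microRNAs in 3 MI libraries (y axis) against 3 sham libraries (x axis), in TMM-normalised CPM on log axes; red points were higher with MI, blue lower and grey not called. miR-21a-5p lies at 3565 in sham and 51917 in MI, and miR-133a-3p at 247766 and 17012; points between the solid and the dotted line are those whose direction differs between TMM and library totals.

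The largest fall of all members was that of a muscle microRNA. miR-1a-3p, made by heart and skeletal muscle cells, stood at 13232, 13550 and 11246 normalised CPM in the sham libraries and at 265, 440 and 697 in MI replicates 1, 2 and 3, a fall of 27.1-fold (log2 -4.76, s.e. 0.35, edgeR adjusted p 3.91e-06). miR-133a-3p, which comes from the same transcripts, was the most abundant microRNA of the sham ventricle with 16.6% of all microRNA reads and held 2.52% in MI. Its levels were 245135, 252637 and 245528 in sham and 7416, 16238 and 27384 in MI (log2 -3.86, s.e. 0.43, edgeR adjusted p 4.58e-05). Its 5p arm fell too, from 1051 ± 66.9 to 62.8 ± 29.8 normalised CPM (mean ± s.d., n = 3), and miR-133b-3p from 869 ± 84.2 to 135 ± 55.5.

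Of the microRNAs carried by myosin genes, miR-499-5p was at 1257, 1291 and 1218 normalised CPM in sham and at 47.8, 93.9 and 131 in MI (log2 -3.79, s.e. 0.34). miR-208a-3p was at 1770, 1716 and 1652 in sham and at 105, 152 and 250 in MI (log2 -3.34, s.e. 0.30). miR-208b-3p, carried by the gene of the slow myosin, differed less, with 317, 402 and 341 in sham and 118, 174 and 229 in MI (log2 -1.02, s.e. 0.23, edgeR adjusted p 0.00271), and by library totals it was at 0.13 and not called. Free of any scaling, the reads of miR-208b-3p over those of miR-208a-3p were 0.179, 0.234 and 0.206 in sham and 1.13, 1.15 and 0.914 in MI. The pair was chosen after its values were seen and the ratio is given as a description. In all 7 muscle microRNAs of the list fixed for this work were lower by TMM (median -3.79), and 6 of them in all 4 scalings, beside a median of 0.18 over all members. Of all members 41.6% were lower by TMM and 16.8% in all 4 scalings.

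In each of these microRNAs MI replicate 3 was the MI library nearest to sham and replicate 1 the farthest. The muscle list took at least 17.2% of reads in sham libraries and 1.24, 2.60 and 4.20% in MI replicates 1, 2 and 3. The mRNA libraries with the same names gave a like order: the summed level of 10 cardiomyocyte marker mRNAs was 33797 to 38464 FPKM (fragments scaled to transcript length and library size) in sham and 2443, 3993 and 7487 FPKM in MI replicates 1, 2 and 3. Of 12440 mRNAs tested with limma on log2(FPKM + 1), 11412 (91.7%) were called, 9299 (74.8%) higher and 2113 (17%) lower, with a median of 0.81, and after quantile normalisation 5171 were higher and 5064 lower. All 10 cardiomyocyte markers were lower, and among them Tnni3, cardiac troponin I, was at 120, 209 and 455 FPKM in MI and at 3546 to 4001 in sham. In bulk tissue fewer muscle cells and less of an RNA per muscle cell cannot be told apart, and the part of the cardiomyocyte markers in the fall of these microRNAs was not tested. Over all lower microRNAs MI replicate 3 was the MI library nearest to sham in 91 of 141, and over the higher ones in 104 of 163.

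**Figure D2:**
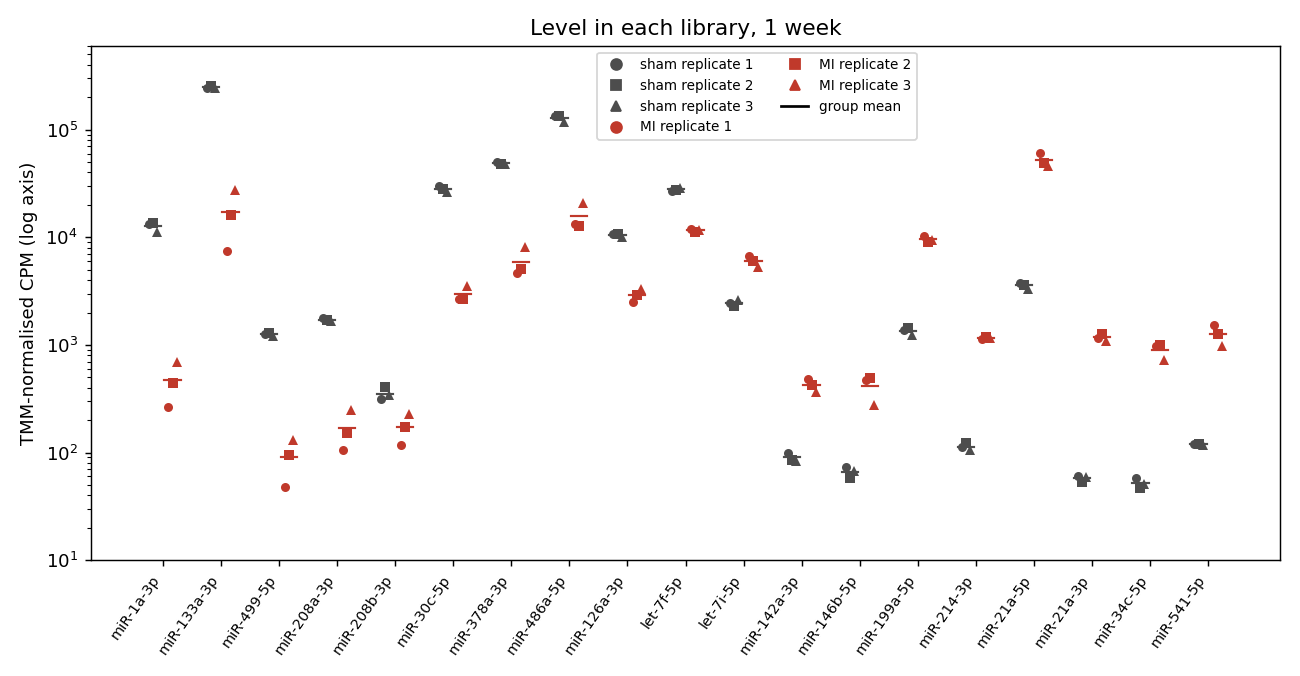
Level of 19 named microRNAs in each 1-week library, in TMM-normalised CPM on a log axis; grey marks are sham and red marks MI, the shape gives the replicate and a bar the mean of 3. The groups do not overlap for any microRNA plotted, and for the 5 muscle microRNAs on the left the red triangle (MI replicate 3) is the red mark closest to the grey ones.

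Abundant microRNAs of the heart that are not limited to muscle were mostly lower as well. Of 22 on the list, 20 were lower and 1 higher by TMM (median -2.33), with 15 lower in all 4 scalings. Among all members the lower share was 41.6% by TMM and 16.8% in all 4 scalings. The miR-30 family, which is plentiful in cardiomyocytes, fell as a whole. miR-30c-5p was at 29798, 27962 and 26625 normalised CPM in sham and at 2678, 2685 and 3559 in MI (log2 -3.24, s.e. 0.14). miR-30e-5p fell by 2.67, miR-30a-5p by 2.29 and miR-30d-5p by 2.08 on the log2 scale, and among the other arms miR-30e-3p fell by 3.17. The members thus kept one direction but not one size, and the reads of miR-30c-5p over those of miR-30d-5p were 1.61 to 1.67 in sham and 0.660 to 0.832 in MI.

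The miR-378 group, whose main member lies in the gene of the metabolic coactivator PGC-1beta, was lower in the same manner. miR-378a-3p stood at 50063, 47999 and 47645 normalised CPM in sham and at 4613, 5073 and 8164 in MI (log2 -3.03, s.e. 0.22), and miR-378d, miR-378b and miR-378c fell by 3.51, 3.28 and 3.12. These names differ by few bases, so reads may be shared among them in ways the counting decides. miR-149-5p fell from 2282 ± 103 to 216 ± 81.8 normalised CPM. miR-22-3p had the largest mean share of reads in the MI libraries, 10.5% against 13.9% in sham, though in MI replicate 1 miR-21a-5p was first. By TMM miR-22-3p fell by 1.56 on the log2 scale (s.e. 0.12), though it was 0.24 higher and not called in the authors' normalised values. Where the difference was small the direction rested on the scaling: miR-26a-5p was at -1.12 by TMM and at 0.04, not called, by totals, and miR-27b-3p at -0.32 by TMM and at 0.84, called higher, by totals. miR-193b-3p was the member of this list that was higher (log2 1.18).

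Among members with a mean of at least 100 RPM the largest rise was that of the miR-21a hairpin, known from fibroblasts, leukocytes and injured tissue. Its main strand miR-21a-5p was at 3772, 3625 and 3297 normalised CPM in the sham libraries and at 60869, 49295 and 45587 in MI, 14.6-fold higher (log2 3.86, s.e. 0.14, edgeR adjusted p 2.68e-07). In plain shares it went from 0.238% of microRNA reads, rank 40, to 7.79%, rank 2. The other strand of the hairpin, miR-21a-3p, was at 61.1, 53.7 and 58.9 in sham and at 1158, 1275 and 1092 in MI (log2 4.34, s.e. 0.11). The groups are far apart for both strands, and the reads of 5p over 3p were 56.0 to 67.4 in sham and 38.7 to 52.5 in MI.

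The hairpins of miR-199a and miR-214 on chromosome 1 come from the antisense transcript Dnm3os and are expressed by mesenchymal cells. miR-214-3p was at 112, 122 and 105 normalised CPM in sham and at 1142, 1194 and 1159 in MI (log2 3.36, s.e. 0.10). miR-214-5p (log2 2.95) and miR-199a-5p (2.84) rose by similar amounts. The 3p strand of miR-199a, whose counts cannot be told from those of miR-199b-3p, rose from 10731 ± 232 to 39543 ± 1412 normalised CPM (log2 1.88) and made up 5.92% of MI reads.

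The 4 strands of miR-34b and miR-34c, a family known as targets of p53, all rose. miR-34c-5p was at 58.2, 47.0 and 51.3 normalised CPM in sham and at 979, 997 and 726 in MI (log2 4.11, s.e. 0.17). miR-34b-5p, miR-34b-3p and miR-34c-3p rose by 4.01, 3.87 and 5.16 on the log2 scale from under 3 normalised CPM in sham, and by 2.99, 2.72 and 2.79 in the authors' normalised values. These 3 passed the 10 RPM limit only through MI, so a rise was bound up with passing, and miR-34c-3p rested on 8 to 13 reads per sham library. miR-34a-5p, which lies in another gene, has the seed of miR-34b-5p and was not called by TMM (log2 -0.11), though it was higher by library totals (1.06).

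Of 25 measured microRNAs on the list for fibroblasts and scar, 19 were higher and 3 lower by TMM (median 2.61), and 19 were higher and none lower in all 4 scalings. Among all members the higher share was 48.1% by TMM and 43.1% in all 4 scalings. The 19 include miR-34b-5p, miR-34b-3p and miR-34c-3p, which passed the 10 RPM limit only through MI. For these a rise was bound up with passing, so the count is a description. Besides those named, miR-224-5p rose by 2.86, miR-455-5p by 2.85, miR-140-3p by 2.67 and miR-31-5p by 2.53. miR-140-3p, known from cartilage and mesenchymal cells, went from 634 ± 21.9 to 4035 ± 568 normalised CPM. The 3 that were lower by TMM, miR-322-5p, miR-322-3p and miR-450a-5p, belong to a cluster on the X chromosome, and were at -0.65 to -0.35, which library totals turned to higher. That cluster was not lower throughout: miR-351-5p was higher (0.62) and miR-542-3p was not called by TMM (0.31). In the mRNA libraries all 8 fibroblast markers were higher, as were 74.8% of all mRNAs. The fibroblast markers had a summed level of 13377 to 16280 FPKM in MI and 368 to 450 FPKM in sham. The part of these cells in the microRNA levels was not tested.

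The Dlk1-Dio3 region of chromosome 12 is an imprinted locus with a large group of microRNA genes, expressed from the maternal chromosome. Of 63 microRNAs of the region in the file, 46 passed the limit. With MI 46 of these 46 were higher in all 4 scalings, beside 43.1% of all members. The differences of the 46 ran from 0.97 (miR-136-5p) to 4.27 (miR-679-5p), with a median of 2.89. Together they took 0.207 to 0.228% of reads in sham and 2.74 to 3.57% in MI. Several passed only through MI, and for these a rise was bound up with passing, so the count is a description. The most abundant was miR-127-3p, at 1795, 2000 and 1722 normalised CPM in sham and at 12456, 12488 and 10799 in MI (log2 2.70, s.e. 0.11). miR-541-5p was at 121, 119 and 116 in sham and at 1542, 1254 and 968 in MI (log2 3.40, s.e. 0.18). miR-410-3p rose by 3.42, miR-409-5p by 3.27, miR-409-3p by 3.24, miR-381-3p by 3.06, miR-434-5p by 3.01 and miR-300-3p by 2.99. Of the members, 43 were matched to the genome, and 38 of these lay in 2 groups, one of 7 hairpins from 109585818 to 109595387 (11 strands, median 2.70) and the other of 21 hairpins from 109709065 to 109743784 (27 strands, median 3.06), each on the plus strand with at most 10000 bases between neighbours. Strands of the second group ranged from 1.19 to 4.27, so neighbouring members did not rise by one size.

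**Figure D3:**
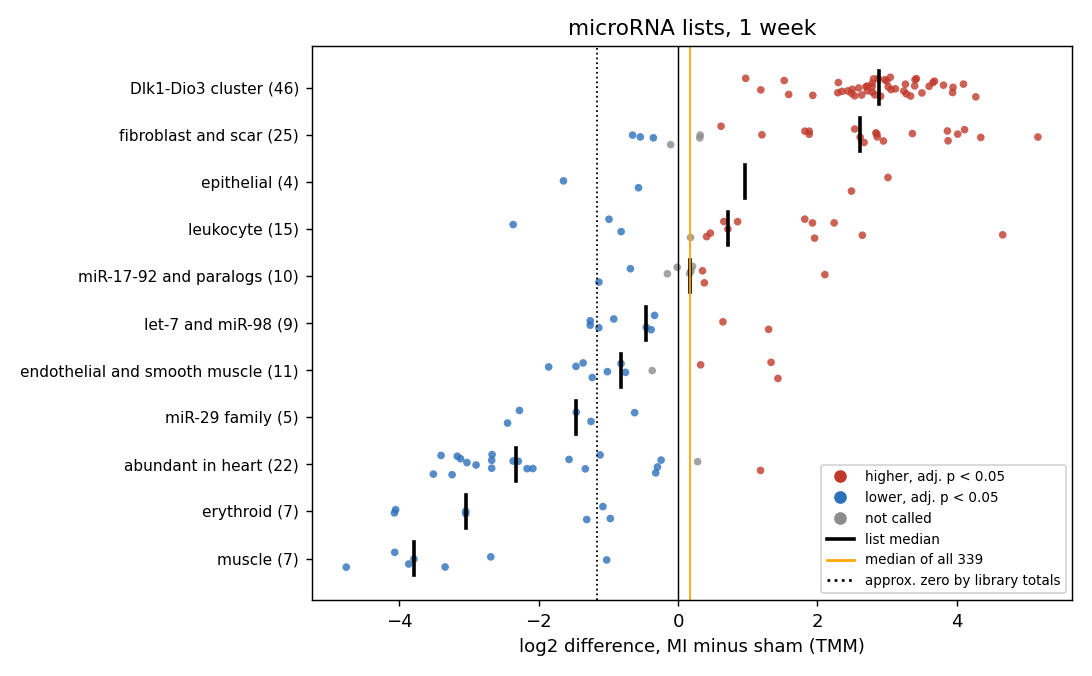
Log2 difference of MI minus sham by TMM (x axis) for each microRNA of 11 lists (y axis, number measured in brackets); red higher, blue lower, grey not called, black bar the list median, orange line the median of all 339. The dotted line at about -1.17 is where zero lies by library totals; the 46 Dlk1-Dio3 microRNAs are all right of zero and the 7 muscle microRNAs all left of it.

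Leukocyte microRNAs were split. Of 15 on the list, 11 were higher and 3 lower by TMM (median 0.72), and 9 were higher and 1 lower in all 4 scalings. Over all members 48.1% were higher and 41.6% lower by TMM, and 43.1% and 16.8% in all 4 scalings. miR-142a-5p, made in all blood lineages, was at 1636, 1473 and 1613 normalised CPM in sham and at 5747, 6667 and 5939 in MI (log2 1.96, s.e. 0.10). miR-223-3p, of neutrophils and monocytes, was at 138, 118 and 130 in sham and at 439, 544 and 376 in MI (log2 1.82, s.e. 0.15). miR-146b-5p, induced by inflammatory signals, rose by 2.64 and its MI libraries spread from 279 to 495. miR-147-3p, induced by Toll-like receptors in macrophages, rose by 4.66 from 1.43 ± 0.234 to 36.3 ± 4.62 normalised CPM and passed the 10 RPM limit only through MI.

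In contrast miR-150-5p, of mature lymphocytes and also on the list of microRNAs abundant in heart, fell from 850 ± 54.6 to 165 ± 28.1 (log2 -2.37). miR-155-5p, of activated leukocytes, was at 115, 122 and 102 in sham and at 66.8, 66.5 and 58.9 in MI, lower by TMM (log2 -0.82) but higher by library totals (0.35). Of the 7 macrophage marker mRNAs tested, 6 were higher and 1, Cd163, lower, where 74.8% of all mRNAs were higher. The summed levels of the macrophage markers were 124 to 212 FPKM in sham and 2719 to 3227 in MI. The 4 T and B cell markers tested were higher, to be read beside the same 74.8%. These 4 summed to 1.87 to 2.22 FPKM in sham and 7.14 to 10.4 in MI.

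Of the 11 endothelial and smooth muscle microRNAs, 7 were lower and 3 higher by TMM, and 2 and 2 in all 4 scalings, where 16.8% of all members were lower and 43.1% higher. miR-126a-3p, which endothelial cells express most strongly, was at 10676, 10841 and 10095 normalised CPM in sham and at 2531, 2916 and 3283 in MI (log2 -1.86, s.e. 0.11), and its 5p strand fell by 1.46. Of the 7 endothelial marker mRNAs 5 were higher and 1 lower, a share near the 74.8% of all mRNAs that were higher, with summed levels of 194 to 252 FPKM in sham and 293 to 306 in MI. miR-218-5p, from the Slit genes, rose by 1.43 and miR-222-3p, of vessel walls, by 1.33. miR-143-3p, of smooth muscle cells, was lower by TMM (log2 -0.75), higher by library totals (0.41) and higher in the authors' normalised values (0.93). Smooth muscle marker mRNAs were higher for 4 of 5, again near that 74.8%.

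Of the 7 erythroid microRNAs all were lower by TMM (median -3.05), and the 4 strands of miR-486 were lower in all 4 scalings. Over all members 41.6% were lower by TMM and 16.8% in all 4 scalings. miR-486a-5p, whose counts are those of miR-486b-5p and which is made both by red cells and by striated muscle, was at 135086, 133522 and 118160 normalised CPM in sham and at 13424, 12625 and 20785 in MI (log2 -3.05, s.e. 0.20). Its 3p strand fell by 4.07. miR-451a, the main microRNA of red cells, was at 1009, 983 and 951 in sham and at 681, 396 and 424 in MI, lower by TMM (log2 -0.97, s.e. 0.20) and at 0.20, not called, by totals. The 5 erythrocyte marker mRNAs had limma adjusted p-values of 0.281 to 0.880 and a summed level of 484 to 933 FPKM in sham and 352 to 1306 in MI. The highest sum was that of MI replicate 1, which also had the most miR-451a among the MI libraries, and the part of red cells in these levels was not tested. Of the 4 epithelial microRNAs measured, miR-183-5p and miR-182-5p rose by 3.01 and 2.49 miR-203-3p fell by 1.64, and miR-141-3p was at -0.57 by TMM and higher by totals.

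Families of one seed allow a comparison that does not rest on scaling, since the ratio of 2 microRNAs within a library is free of it. The 9 let-7 and miR-98 strands have 1 seed, and by TMM let-7i-5p and let-7e-5p were higher and the other 7 lower (median -0.46), whereas by library totals 6 were higher and none lower. Over all members 48.1% were higher and 41.6% lower by TMM, and 71.1% and 16.8% by totals. let-7i-5p rose from 2455 ± 139 to 6040 ± 700 normalised CPM (2.46-fold), and let-7e-5p from 265 ± 8.28 to 414 ± 20.9 (log2 0.64). let-7f-5p went from 27809 ± 984 to 11612 ± 436 (log2 -1.26), at -0.10 and not called by totals. let-7g-5p was alike, at -1.26 and -0.10. The reads of let-7i-5p over those of let-7g-5p were 0.839, 0.801 and 0.860 in sham and 5.75, 4.71 and 4.33 in MI. So the more abundant of this pair was let-7g-5p in each sham library and let-7i-5p in each MI library.

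The miR-29 family, known as repressors of collagen and other matrix genes, was lower by TMM for all 5 strands (median -1.46), of which the 2 strands of miR-29c were lower in all 4 scalings. The shares over all members were 41.6% and 16.8%. miR-29c-3p fell from 747 ± 20.9 to 137 ± 31.9 normalised CPM (log2 -2.45, s.e. 0.17). miR-29a-3p was at -1.25 by TMM and at -0.09, not called, by totals, and miR-29b-3p at -0.62 by TMM and at 0.54, called higher, by totals. Within the libraries, the reads of miR-29c-3p over those of miR-29a-3p were 0.196 to 0.198 in sham and 0.0742 to 0.0963 in MI. In the polycistron of miR-17 to miR-92a on chromosome 14, miR-18a-5p rose by 2.11 while miR-20a-5p was at -1.14 by TMM and at 0.03, not called, by totals, and the reads of the former over the latter were 0.0419 to 0.0579 in sham and 0.385 to 0.514 in MI. These pairs were chosen after their values were seen and are described without a test. Across the 35 seeds held by at least 2 matched members, all members were called the same way by TMM in 23 and members were called in both directions in 6. Over all members 48.1% were higher and 41.6% lower by TMM, so many pairs would match whatever their seed. Names with identical counts, such as miR-199a-3p and miR-199b-3p, match in any case.

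Both arms of the hairpin were measured for 90 hairpins. By TMM both were higher in 38, both lower in 27 and the arms were called in opposite directions in 10, with at least 1 arm not called in the remaining 15. Since 48.1% of all members were higher and 41.6% lower by TMM, many arms would match without sharing a hairpin. The median absolute difference between the arms was 0.50 log2, and 21 hairpins differed by over 1. The hairpin of miR-455 had the largest gap among these. Its reads of 5p over 3p were 0.427, 0.417 and 0.327 in sham and 2.59, 2.51 and 1.75 in MI, so the major strand differed between the groups. In miR-125a the ratio was 844, 1180 and 865 in sham and 180, 163 and 221 in MI, and in miR-210, which hypoxia induces, 0.217, 0.206 and 0.261 in sham and 0.0519, 0.0720 and 0.0656 in MI. The ratios of the groups did not overlap in these 3 hairpins, nor in most others, since this held for 59 of the 90 (65.6%). They were chosen for their values and are described without a test.

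The mRNA libraries of the same names gave the levels of genes that carry microRNAs. Host genes are to be read beside the median of 0.81 over all mRNAs. Of 34 host genes tested, 22 were higher, 8 lower and 4 not called, where 74.8% of all mRNAs were higher and 17% lower. Of the 58 microRNA strands in them, 34 were called by TMM in the direction of the host mRNA and 10 in the opposite one, and for 14 the strand or the host was not called. Over all members 48.1% were higher and 41.6% lower by TMM, and 43.1% and 16.8% in all 4 scalings, so many pairs would match in any case. Both strands of a hairpin were set against the same host, so the counts of pairs are a description. Of the pairs whose strand had the same call in all 4 scalings, 32 had the direction of the host and 2 the opposite one. These 2 were miR-22-3p and miR-338-3p, the latter in Aatk. The host calls rest on FPKM without further scaling, and Aatk, at 0.47, was called higher but lay under the median of 0.81. Myh6, fast cardiac myosin and host of miR-208a, was at 2636, 3531 and 3349 FPKM in sham and at 120, 231 and 553 in MI (log2 -3.66, s.e. 0.49). Myh7b, host of miR-499, fell by 2.34, Ank1, host of miR-486, by 2.55, Ppargc1b, host of miR-378a, by 1.17 and Gpc1, host of miR-149, by 1.09. Myh7, host of miR-208b, was at 45.6, 66.8 and 54.4 in sham and 47.2, 79.2 and 121 in MI, which was not called (log2 0.48, limma adjusted p 0.166). Without MI replicate 1 it was called higher (0.82).

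Among the hosts of microRNAs that rose, Dnm3os went from 0.305 ± 0.0337 to 9.85 ± 1.23 FPKM (log2 3.05), Col27a1, a fibrillar collagen gene with miR-455, rose by 2.72, Wwp2, with miR-140, by 1.72 and Vmp1, whose gene overlaps that of miR-21a, by 1.52. Slit2 and Slit3, with miR-218, rose by 2.97 each. The added 1 FPKM understates changes of low genes, and with 0.1 in its place Dnm3os was at 4.62, Col27a1 at 4.06 and Myh7b at -3.79. Host and microRNA stood apart in other genes. Mir22hg, the host transcript of miR-22, was at 6.65, 6.52 and 5.98 FPKM in sham and at 19.3, 20.9 and 20.4 in MI (log2 1.52) while miR-22-3p was lower. Ctdspl, host of miR-26a-1, rose by 1.77 while miR-26a-5p was lower by TMM and not called by totals. The counts are per mature microRNA, so they do not show which share of miR-26a-5p came from the hairpin in Ctdspl. Egfl7, host of miR-126a, was not called (0.10, and lower at -0.47 after quantile normalisation) while miR-126a-3p was lower.

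**Figure D4:**
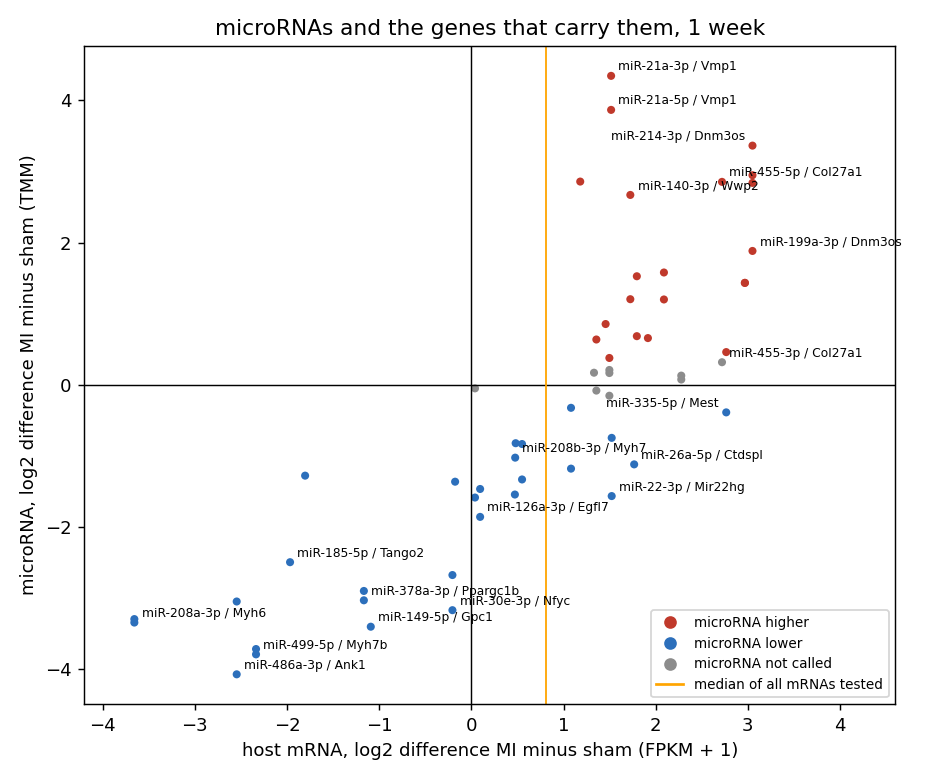
Log2 difference of MI minus sham of microRNA strands (y axis, TMM-normalised counts) against that of the mRNA of their host gene (x axis, log2(FPKM + 1)), for 58 pairs. Each point is 1 pair of strand and host, coloured by the call of the microRNA, and the orange line is the median of all 12440 mRNAs, 0.81. Strands of Myh6, Myh7b and Ank1 lie at the lower left, those of Dnm3os at the upper right, and miR-22-3p lies at 1.52 and -1.56.

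The 1-week difference was set against those of the other stages, each with its own 3 sham libraries, in 1 fit of all 18 libraries. Against 1 day, 248 microRNAs (73.2%) had another difference at 1 week, larger (more positive) for 127 (37.5%) and smaller for 121 (35.7%). Against 8 weeks it was 210 (61.9%), larger for 116 (34.2%) and smaller for 94 (27.7%). By library totals the split was 198 larger and 71 smaller against 1 day, and 169 and 51 against 8 weeks. Of the 46 Dlk1-Dio3 microRNAs, 7 were higher and 1 lower at 1 day, 46 higher at 1 week and 46 at 8 weeks, with medians of 0.22, 2.89 and 1.73. Of all 339 members, 95 were higher and 93 lower at 1 day in this fit, 161 and 135 at 1 week, and 138 and 143 at 8 weeks. For the Dlk1-Dio3 microRNAs the difference at 1 week exceeded that at 1 day for 45 and that at 8 weeks for 35, with 1 smaller. All members were taken by their level in the 1-week libraries alone. Another 19 microRNAs reached 10 RPM in 3 of all 18 libraries but not at 1 week, and were left out. A larger rise at 1 week was thereby favoured, so the counts of this paragraph are a description. The muscle list had medians of -0.75, -3.76 and -2.57 at the 3 stages in order, and 6 of 7 members were smaller at 1 week than at 1 day. The leukocyte list had medians of 1.18, 0.72 and 0.29. Its member miR-223-3p was at 4.20 at 1 day, 1.83 at 1 week and 0.83 at 8 weeks, while miR-147-3p was at 4.78, 4.66 and 1.68. The fibroblast and scar list had medians of 0.17, 2.60 and 2.44, and miR-199a-5p, for one, was at 0.17, 2.84 and 3.04.

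Among members with a mean of at least 100 RPM, the largest excess over 1 day was that of miR-214-3p (log2 difference of 3.37 at 1 week and -0.11 at 1 day), followed by miR-31-5p, miR-541-5p, miR-434-5p and miR-34c-5p. Against 8 weeks, under the same limit, it was that of miR-21a-3p, at 4.35 at 1 week and 1.86 at 8 weeks, whereas miR-21a-5p was at 3.86 and 2.49. miR-335-3p was at 0.46 at 1 week and -2.02 at 8 weeks. miR-208b-3p was at -1.01 at 1 week and 1.47 at 8 weeks, with levels in this fit of 146 ± 52.0 normalised CPM in MI and 294 ± 44.1 in sham at 1 week and of 1377 ± 364 and 498 ± 109 at 8 weeks.

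**Figure D5:**
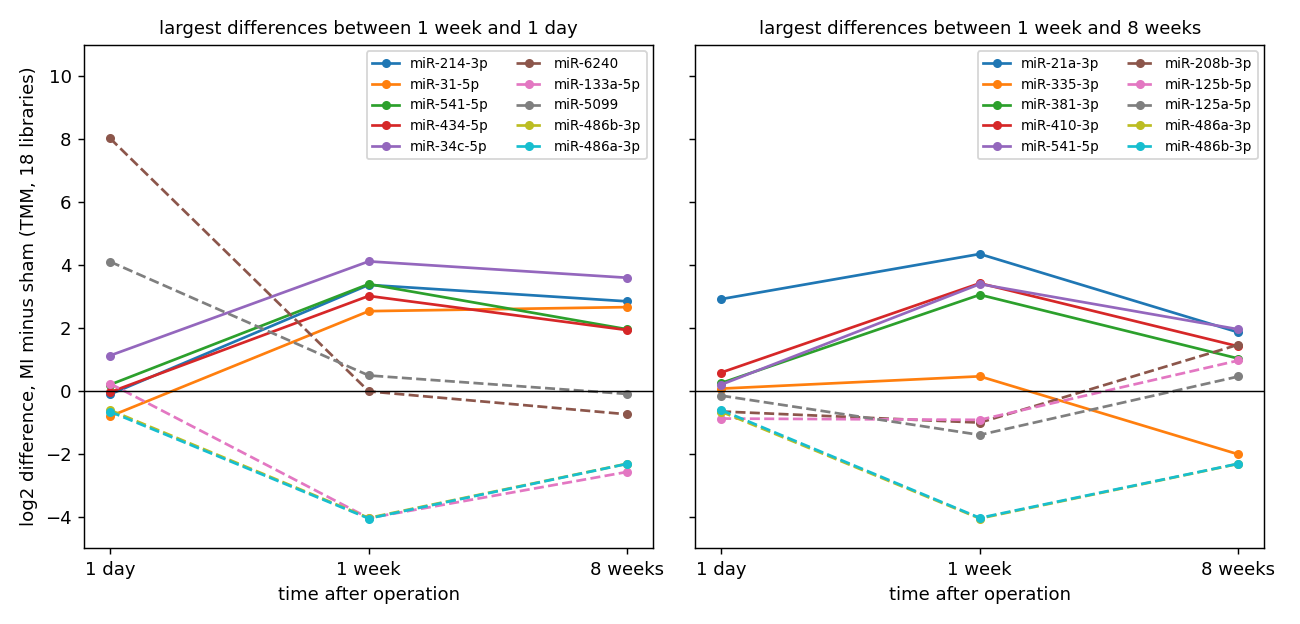
Log2 difference of MI minus sham (y axis, TMM, fit of 18 libraries) by time after operation (x axis, not to scale) for the microRNAs, with a mean of at least 100 RPM, that had the largest differences of 1 week from 1 day (left) and from 8 weeks (right); solid lines are larger at 1 week and dashed lines smaller. miR-6240 is at 8.02 at 1 day and at -0.02 at 1 week, and miR-208b-3p at -1.01 at 1 week and 1.47 at 8 weeks.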

How the data were processed

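Small RNA of 6 left ventricle libraries, 3 MI and 3 sham, was analysed, with 12 of other stages for stage differences and 6 mRNA libraries. The authors deposited raw read counts per mature microRNA, RPM computed from them, normalised log2 values with the same distribution in every library, and for mRNA FPKM and normalised log2 values. The submitters' processing notes name TopHat2 2.0.13, Bowtie2 2.2.3, Cufflinks 2.2.1 and mm10. The small RNA mapper and the miRBase release are not given in the sources used here. The deposited fold and p-value columns, the authors' own comparisons, were not used. The members and lists were chosen with earlier results of these data known.

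Counts of the 339 members were fitted with edgeR 4.0.16 (TMM, library sizes over all 624 microRNAs, quasi-likelihood F test, threshold 0.05 after Benjamini-Hochberg adjustment, 4 residual degrees of freedom). Standard errors are the log2 difference over the square root of F. Counts cover 28647053 to 36362789 reads a library, so for abundant microRNAs the spread between libraries exceeds the counting error, while low ones rest on few reads. The mRNA test was limma 3.58.1 with trend on log2(FPKM + 1), for genes with at least 1 FPKM in 3 libraries. The depth behind FPKM is unknown. Named microRNAs are the 12 largest rises and falls among those called, without overlap and with a mean of at least 100 RPM, the 10 most abundant per group, list members, other arms and strands with the same seed, the 5 largest stage differences each way, and host genes. Alternatives were RLE, upper-quartile and no factors, other filters, DESeq2 1.42.0, limma on log2(RPM + 1), a robust fit, all 18 libraries in the fit, the replicate number as a block and leaving out each library, and, chosen after seeing the data, the authors' log2 values, identical rows counted once and factors from non-muscle microRNAs. In data simulated for this comparison edgeR called 84% of microRNAs changed by 0.5 log2 and 100% of those changed by 1, with 5 false calls among 139. In the mRNA simulation on 12440 genes limma called 76% and 94%, with 10 false calls among 12240. Each simulation changed 200 features around the sham means, up or down at random, without a shift of the whole library. The small RNA simulation used a common spread for all microRNAs. In the data 91.7% of mRNAs were called and the TMM factors differed between the groups. The false-call counts of the simulations therefore need not hold for the data. R 4.3.3 was used.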

Additional observations from a re-analysis of the deposited data

Results flagged for a closer look

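The difference between MI and sham at 1 week differed from that at another stage for the microRNAs named here, by a test of the difference itself in the fit of all 18 libraries (edgeR quasi-likelihood test, adjusted over 339). They are the 5 largest in each direction, taken where the mean reached 100 RPM, and each is given as the log2 difference at 1 week minus that at the other stage. Against 1 day the values were 3.48 for miR-214-3p, 3.34 for miR-31-5p, 3.20 for miR-541-5p, 3.06 for miR-434-5p and 2.99 for miR-34c-5p, and in the other direction -8.04 for miR-6240, -4.27 for miR-133a-5p, -3.61 for miR-5099, -3.43 for miR-486b-3p and -3.39 for miR-486a-3p. Against 8 weeks they were 2.49 for miR-21a-3p, 2.48 for miR-335-3p, 2.03 for miR-381-3p, 2.01 for miR-410-3p and 1.44 for miR-541-5p, and in the other direction -2.48 for miR-208b-3p, -1.89 for miR-125b-5p, -1.86 for miR-125a-5p, -1.74 for miR-486a-3p and -1.72 for miR-486b-3p. The adjusted p from edgeR lay between 1.93e-10 and 0.00202.

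miR-6240 was at 3622 ± 971 normalised CPM in MI and 13.9 ± 2.14 in sham at 1 day and at 8.71 ± 3.26 and 8.78 ± 0.60 at 1 week. miR-5099 was at 1377 ± 246 and 80.1 ± 12.2 at 1 day and at 125 ± 22.2 and 89.2 ± 5.02 at 1 week. With 3 libraries per group no single library could be tested as an outlier.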

How the results depend on the processing

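The values that follow are log2 differences or counts of calls under other settings, and the cause of each change was not tested unless named. The 163 higher and 141 lower microRNAs became 284 higher of 489 called with no filter, and 92 and 88 (180 in all) with a mean of at least 50 RPM, where more or fewer microRNAs were tested. The lower ones were 57 with library totals alone and 57 with limma on log2(RPM + 1), which has no factors either. Against 1 day, 248 stage differences (127 larger, 121 smaller) became 198 larger and 71 smaller with totals alone, 199 and 72 with limma on log2(RPM + 1), 240 larger of 375 with no filter, and 64 and 79 (143) with at least 50 RPM. Against 8 weeks, 210 (116 and 94) became 51 smaller with totals alone, 178 larger and 52 smaller with limma on log2(RPM + 1), 215 larger with no filter, and 68 and 57 (125) with at least 50 RPM. Of the host mRNAs at 1 week, all mRNAs tested, 5171 were higher and 5064 lower after quantile normalisation and 5303 and 4987 in the authors' normalised values, chosen after seeing the data.

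Leaving out each 1-week library in turn gave 287 to 306 called microRNAs (154 to 168 higher, 133 to 139 lower), 240 to 254 stage differences from 1 day (112 to 127 larger, 118 to 136 smaller) and 196 to 215 from 8 weeks (91 to 112 and 91 to 107), and 11163 to 11357 mRNAs (9149 to 9225 higher, 2014 to 2147 lower). The remaining pair of a group was assumed to vary like the others.

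Directions turned with library totals alone and with limma on log2(RPM + 1) for miR-155-5p (0.35 and 0.34), miR-208b-3p (0.13 and 0.10), miR-26a-5p (0.044 and 0.043), miR-27b-3p (0.84 and 0.84), miR-29b-3p (0.54 and 0.55), miR-143-3p (0.41 and 0.41), miR-451a (0.20 and 0.15), miR-20a-5p (0.032 and 0.044) and let-7a-5p (0.24 and 0.24). In the authors' normalised values they turned for miR-22-3p (0.24), miR-26a-5p (0.18), miR-27b-3p (0.61) and miR-143-3p (0.93). Egfl7 mRNA turned to -0.47 after quantile normalisation and -0.48 in the authors' normalised values. Of the other alternative values of named microRNAs and genes, 2089 kept direction and side of the threshold, 11 lost the call and 1 gained it.

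The replicate numbers did not pair the libraries: same-numbered MI and sham libraries had correlations of their deviations of 0.19, -0.10 and 0.11. With the number as a replicate block 302 microRNAs were called (162 higher, 140 lower), 253 stage differences from 1 day and 199 from 8 weeks, and 11378 mRNAs.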
